A study of Capra hircus with 29 samples.

Results

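The transcripts described here are those of MGP, STAR, SERPINE2, TIMP1, SPARC, FST, INHBA, INHBB, KRT18 and CYP11A1, 10 of the 21343 genes in a table of expression in goat oocytes. They were taken by gene symbol, and the symbols had been picked for their levels in these same samples as transcripts usually read as products of the somatic cells of the follicle. Their levels, their differences between groups and their correlations are therefore descriptions. KRT18 is carried by 2 gene models, so the 10 genes fill 11 rows of the table, and the model ENSCHIG00000023628 is the one used below. The other KRT18 model was listed at 0 in 27 of 29 samples and reached 0.0431 FPKM (fragments scaled to transcript length and to the mapped fragments of a sample, a level per length).

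An oocyte grows inside a follicle, surrounded by granulosa and cumulus cells, with theca cells outside the basement membrane. Somatic cells of the follicle make steroids, matrix proteins, protease inhibitors and the activin and inhibin subunits, and they contact the oocyte through processes that cross the zona pellucida. An oocyte is usually freed from these cells before its RNA is sequenced, and transcripts of somatic cells are commonly used to look for cells that stayed attached.

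The oocytes came from Ji'ning grey goats of a high fertility group, with more than 3 kids per birth per the labels, and a low fertility group, with fewer than 2. Each group was divided by the size of the follicle into large, medium and small, giving HLO, LLO, HMO, LMO, HSO and LSO (H and L for fertility, the middle letter for follicle size). There were 5 samples in each group and 4 in HSO, whose replicates are numbered 1, 3, 4 and 5. A sample was a pool of a few oocytes, granulosa cells had been removed by pipetting, and the labels name no treatment in any group. Per the study's methods, stated for the high fertility group, the oocytes of a follicle size were pooled over goats and then divided into the samples. The samples of a group are then divisions of 1 pool, and for the low fertility group the pooling is not stated. The SDs, SEs and p-values below therefore measure the spread between such samples and not that between goats.

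FPKM summed over all genes ranged from 222697 in LMO 2 to 490048 in HMO 1 (median 425859), and 6646 to 8689 genes per sample exceeded 0.5 FPKM. The steps between low values put the depth of the samples at 0.655 to 1.17 times that of HLO 1, and the number of reads behind a value was not given. LMO 5 and LSO 5, which carry labels of different groups, were the most alike of 406 pairs of samples, with r = 0.993 over 9692 genes. Over 1676 genes with a mean above 20 FPKM, the SD of their log2 differences was 0.286, against 0.483 for the next closest pair (LMO 1 and HSO 1) and a median of 1.28. The values of LMO 5 and LSO 5 were not identical, the reason for their likeness was not tested, and results that rest on them are given with and without them.

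The samples carried high levels of oocyte transcripts. ZP3, a zona pellucida protein, had a mean of 1406 FPKM, ZP4 424, ZP2 245, and the oocyte growth factors GDF9 and BMP15 had 312 and 152. A granulosa list gave mixed levels. Of its 20 genes 18 were in the table, of which 5 were at 0 in 29 of 29 samples (AMH, AMHR2, HSD17B1, IHH and NR5A1) and 12, these 5 included, never exceeded 0.5 FPKM. Of all 21343 genes, 4171 were at 0 in every sample and 9944 never exceeded 0.5 FPKM, and an exact 0 in such a table need not mean that a transcript was absent. FSHR, the receptor for follicle-stimulating hormone, reached at most 0.283 FPKM, CYP19A1 (aromatase) 0.244 and INHA, the inhibin alpha subunit, 0.782. The other 6 genes of the list, INHA among them, did exceed 0.5 FPKM. KITLG, the ligand of the oocyte receptor KIT, and VCAN, a matrix proteoglycan, did so in 29 of 29 samples, with means of 4.71 and 3.97 FPKM. WT1 did so in 28 samples (mean 1.02), GJA1, a gap junction protein, in 19 (up to 4.23), ESR2 in 4 (up to 1.16) and INHA in 1. The summed level of the list ranged from 8.10 to 16.8 FPKM in HLO, 6.26 to 18.8 in LLO, 7.08 to 14.1 in HMO, 4.61 to 17.2 in LMO, 6.99 to 21.1 in HSO and 5.51 to 17.5 in LSO. On average KITLG and VCAN made up most of these sums. The 10 genes are called by their symbols here, and the part of granulosa cells in their levels was not tested. In pooled samples such as these, fewer cells of a type and less RNA per cell cannot be told apart.

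The 10 genes fell into 3 ranges of level. MGP, STAR and SERPINE2 exceeded 2 FPKM in 29 of 29 samples, and their means were higher than those of 91.6, 91.9 and 87.4% of all genes. SPARC exceeded 0.5 FPKM in 25 of 29 samples, with a mean of 1.19 FPKM. TIMP1, INHBA, INHBB, FST, KRT18 and CYP11A1 were at or below 0.5 FPKM in more samples than not. TIMP1 exceeded that level in 13 samples, INHBA in 10, INHBB in 7, FST in 5, KRT18 in 2 and CYP11A1 in 1.

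**Figure D1:**
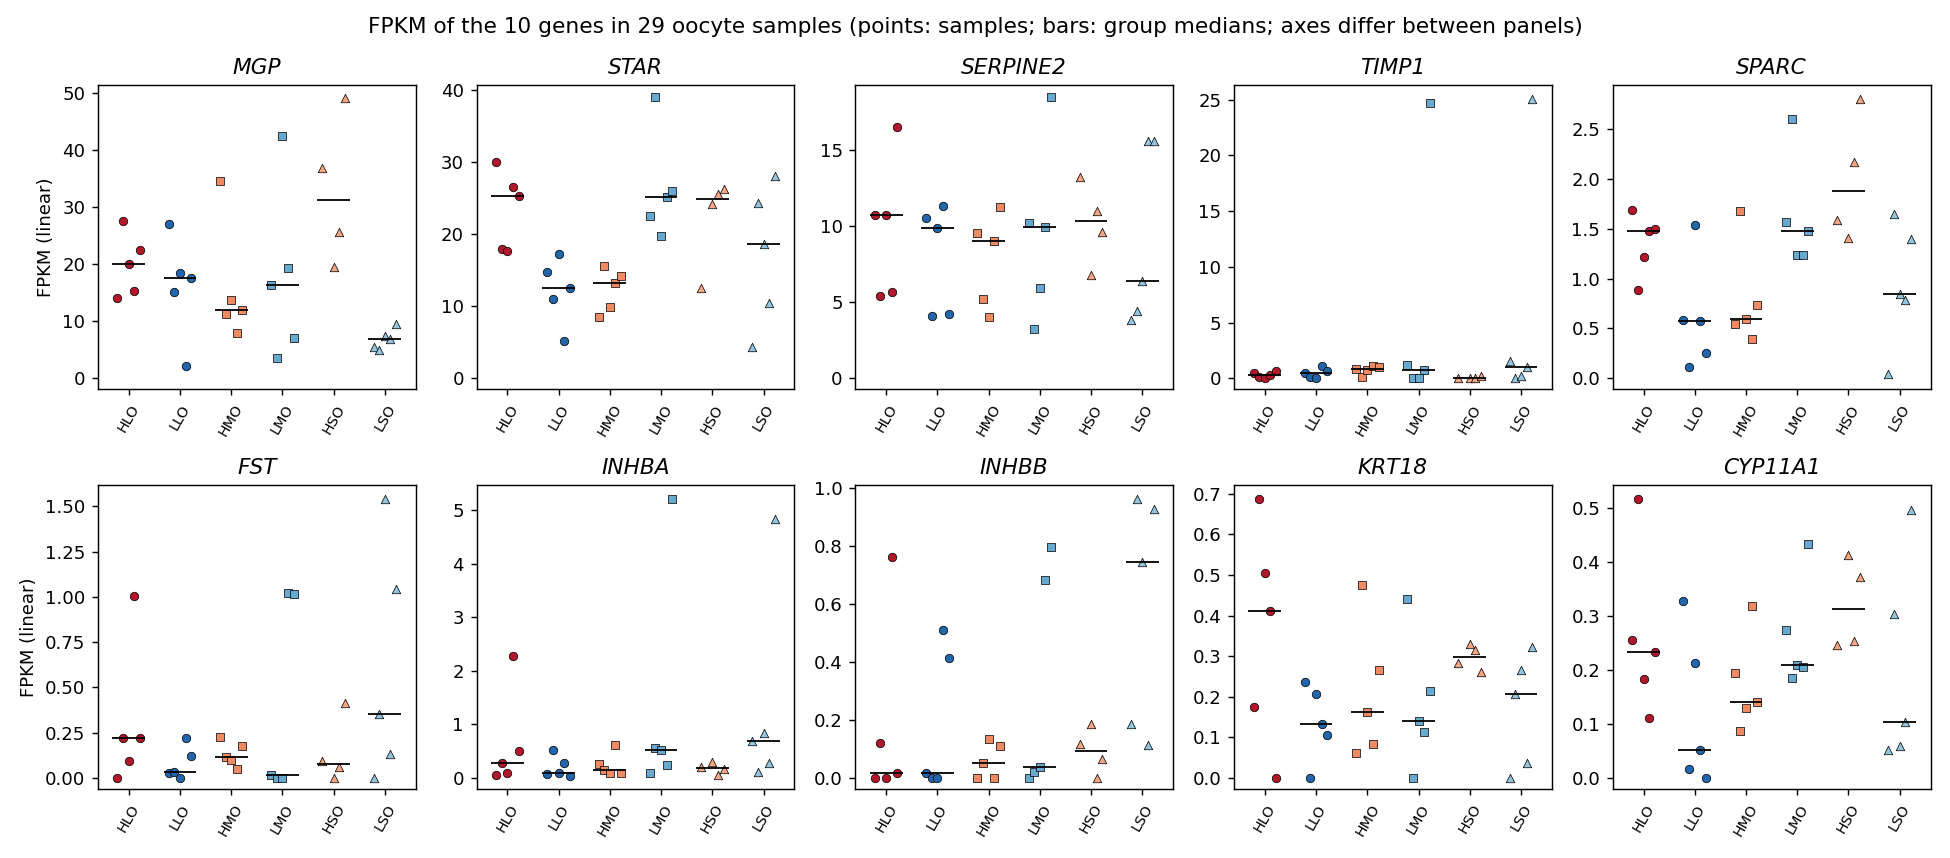
FPKM (linear axes that differ between panels) of the 10 genes in 29 oocyte samples, by group; points are samples and bars are group medians. MGP, STAR and SERPINE2 were above 2 FPKM in every sample shown, while TIMP1 and INHBA were highest in LMO 5 and LSO 5.

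Steroid synthesis begins when STAR moves cholesterol to the inner mitochondrial membrane, where CYP11A1 cleaves its side chain. STAR had 30.01, 18.0, 17.6, 26.5 and 25.4 FPKM in HLO replicates 1 to 5, and 14.7, 10.97, 17.3, 5.11 and 12.5 in LLO. It had 8.54, 15.6, 9.86, 13.3 and 14.2 FPKM in HMO, and 22.5, 39.0, 19.8, 25.1 and 25.97 in LMO. It had 12.5, 24.1, 25.6 and 26.2 FPKM in HSO, and 4.32, 24.4, 18.7, 10.4 and 28.1 in LSO. HLO lay above LLO without overlap, HMO lay below LMO without overlap, and HSO and LSO overlapped. Over all genes tested, groups without overlap were seen in 0.432% of genes in large follicles (0.276% with HLO higher) and 1.7% in medium follicles (0.858% with HMO lower), and nothing is read from the counts of members beside these shares.

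The mean of STAR was 23.5 ± 5.47 FPKM (SD, n = 5) in HLO and 12.1 ± 4.57 (n = 5) in LLO, a ratio of 1.94. On the log2(FPKM + 1) scale the difference was 0.96 (SE 0.431), with HLO higher in 5 of 5 replicate numbers; the gap between the lowest HLO sample and the highest LLO sample was 17.62 against 17.25 FPKM. In medium follicles the mean was 12.3 ± 2.97 FPKM (n = 5) in HMO and 26.5 ± 7.41 (n = 5) in LMO, 2.16-fold higher in LMO. The log2 difference was -1.04 (SE 0.308), with LMO higher in 5 of 5 numbers. In small follicles it was 0.53 (SE 0.513), from means of 22.1 ± 6.46 FPKM (n = 4) in HSO and 17.2 ± 9.82 (n = 5) in LSO. The order of the group means was LMO, HLO, HSO, LSO, HMO and LLO; LMO, HLO and HSO lay within 1 SD of each other, as did HMO and LLO.

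CYP11A1 was far lower, with a median of 0.209 FPKM over 29 samples. It was listed at 0 in LLO 5 and was highest in HLO 2 (0.517 FPKM), LSO 5 (0.496) and LMO 5 (0.433). Its group means ran from 0.122 ± 0.142 FPKM (SD, n = 5) in LLO to 0.321 ± 0.0833 (n = 4) in HSO, and the fertility groups overlapped at each follicle size. Of 22 genes of steroid synthesis 18 were in the table. CYB5A, a cytochrome b5, had a mean of 59.6 FPKM, FDX1, the ferredoxin that passes electrons to CYP11A1, 22.8, and HSD17B12, which works in fatty acid elongation, 14.8. HSD17B2, which oxidises estradiol, averaged 5.87 FPKM, with 8 samples above 0.5 FPKM. TSPO, NR5A1 and HSD17B1 were listed at 0 in 29 of 29 samples.

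MGP, SPARC, SERPINE2 and TIMP1 encode proteins of the matrix and its turnover. MGP (matrix Gla protein), a vitamin K dependent inhibitor of calcification, had 14.0, 27.6, 20.1, 15.3 and 22.5 FPKM in HLO and 27.05, 15.1, 18.4, 2.08 and 17.6 in LLO. It had 34.5, 11.3, 13.8, 7.95 and 12.0 FPKM in HMO and 16.3, 3.62, 42.5, 19.4 and 7.12 in LMO. In small follicles it had 36.9, 19.6, 25.6 and 49.1 FPKM in HSO and 5.49, 4.93, 7.39, 6.91 and 9.59 in LSO. The small-follicle groups did not overlap, as for 2.05% of all genes tested (0.752% with HSO higher), and those of large and medium follicles did.

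The mean of MGP was 32.8 ± 13.03 FPKM (SD, n = 4) in HSO and 6.86 ± 1.83 (n = 5) in LSO, 4.78-fold higher in HSO. The log2 difference was 2.05 (SE 0.353), with HSO higher in 4 of 4 shared numbers. In large follicles the means were 19.9 ± 5.52 FPKM (n = 5) in HLO and 16.1 ± 9.02 (n = 5) in LLO, with a log2 difference of 0.56 (SE 0.574). In medium follicles they were 15.9 ± 10.6 (n = 5) in HMO and 17.8 ± 15.2 (n = 5) in LMO. There the log2 difference was 0.08 (SE 0.574), so the mean of the FPKM and the mean of their logs differed in sign. HSO had the highest and LSO the lowest group mean, and the means of the other 4 groups lay within 1 SD of each other.

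SPARC (osteonectin), a collagen-binding matrix protein, had 1.69, 0.887, 1.22, 1.48 and 1.495 FPKM in HLO and 0.581, 0.117, 1.54, 0.577 and 0.250 in LLO. It had 0.547, 1.68, 0.592, 0.397 and 0.735 FPKM in HMO and 1.57, 2.60, 1.24, 1.23 and 1.47 in LMO. It had 1.59, 1.41, 2.17 and 2.80 FPKM in HSO and 0.0478, 1.65, 0.842, 0.789 and 1.39 in LSO. One sample made the groups overlap in large follicles (LLO 3) and one in medium follicles (HMO 2). The log2 difference was 0.60 (SE 0.254) in large, -0.57 (SE 0.222) in medium and 0.67 (SE 0.288) in small follicles, with the high fertility group higher in 4 of 5, 0 of 5 and 4 of 4 numbers.

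**Figure D2:**
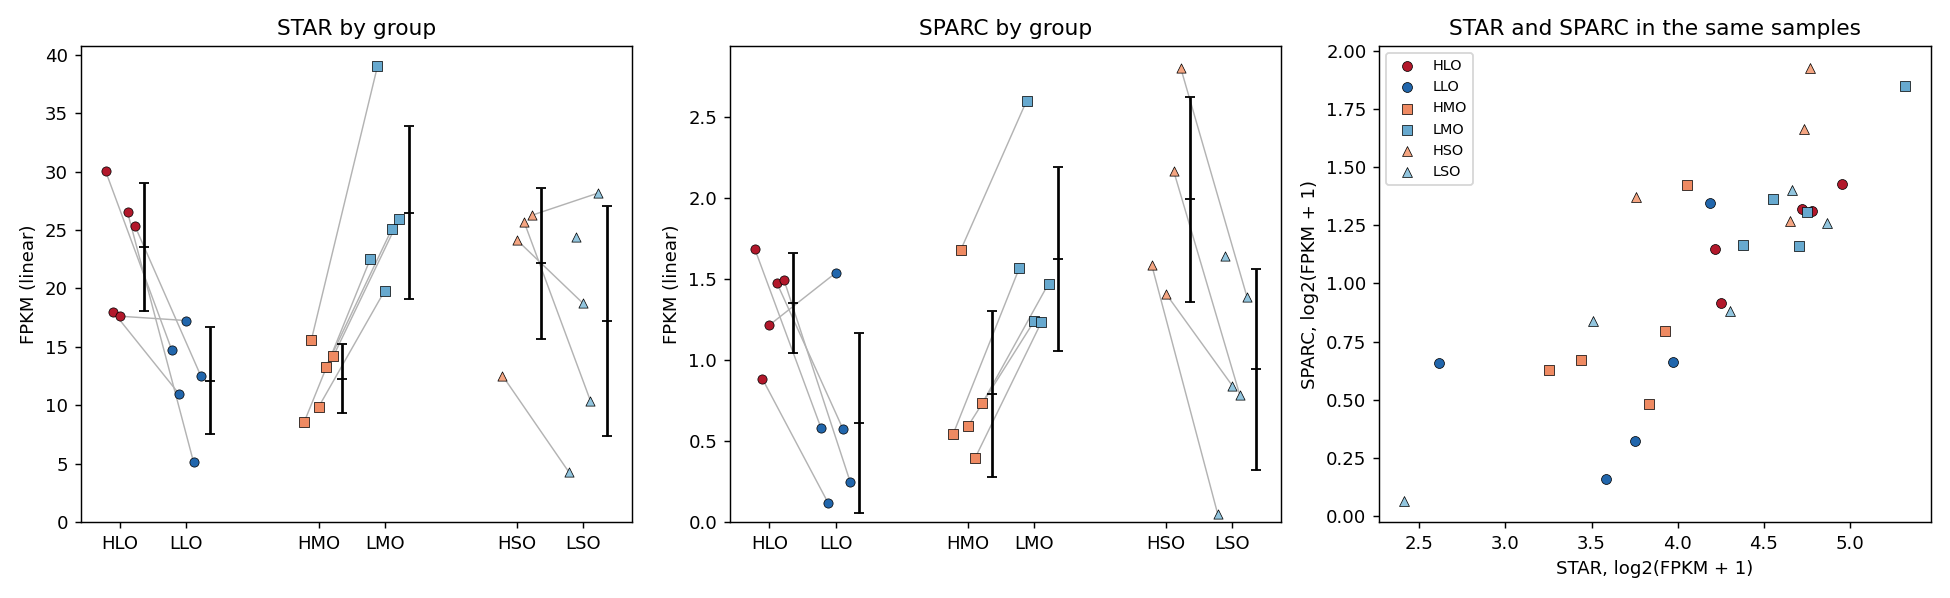
STAR and SPARC in FPKM by group (left and middle; points are samples, bars are mean ± SD, and grey lines join samples with the same replicate number) and the 2 genes against each other on the log2(FPKM + 1) scale (right). For both genes the high fertility mean was higher in large and small follicles and lower in medium follicles, and r was 0.80 over 29 samples.

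SERPINE2 (protease nexin 1), an inhibitor of thrombin and plasminogen activators, ranged from 3.23 FPKM in LMO 2 to 18.5 in LMO 5, with a mean of 9.05 ± 4.18 (SD, n = 29). Its group means lay between 7.81 ± 3.06 FPKM (n = 5) in HMO and 10.2 ± 2.71 (n = 4) in HSO, closer to each other than the SD within any group. The log2 difference was 0.26 (SE 0.452) in large, -0.16 (SE 0.425) in medium and 0.30 (SE 0.449) in small follicles.

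TIMP1, an inhibitor of matrix metalloproteinases, stood at 24.7 FPKM in LMO 5 and 25.1 in LSO 5 and at most at 1.55 in the other 27 samples. It was listed at 0 in 8 samples, of which 3 were HSO and 2 LMO. The remaining HSO sample had 0.235 FPKM. In HMO the 5 samples ranged from 0.0901 to 1.13 FPKM, in HLO from 0 to 0.642 and in LLO from 0 to 1.11. The means of LMO and LSO, 5.34 ± 10.8 and 5.56 ± 10.9 FPKM (SD, n = 5), each rested on 1 sample.

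Of 26 genes of the matrix and its proteases 25 were in the table, and 13 never exceeded 0.5 FPKM. After the members, the highest mean was that of LAMB1, a laminin chain, at 4.01 FPKM, followed by LAMC1, another laminin chain, at 1.67. TIMP2 stayed at or below 0.287 FPKM, and TIMP4 and the protease MMP14 were listed at 0 throughout. GGCX, the carboxylase that activates MGP, reached at most 0.134 FPKM.

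INHBA and INHBB encode the beta subunits of activins and inhibins, and FST encodes follistatin, which binds activin and blocks it. INHBA had 5.21 FPKM in LMO 5, 4.84 in LSO 5 and 2.27 in HLO 4, and at most 0.840 in the other 26 samples. The medians of the groups ran from 0.0890 FPKM in LLO to 0.699 in LSO. The groups overlapped at each follicle size.

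FST was listed at 0 in 6 samples and exceeded 0.5 FPKM in HLO 4 (1.005), LMO 4 (1.02), LMO 5 (1.02), LSO 3 (1.54) and LSO 5 (1.05). INHBB was listed at 0 in 8 samples. It exceeded 0.5 FPKM in LSO 2 (0.964), LSO 5 (0.930), LMO 5 (0.799), HLO 4 (0.764), LSO 3 (0.747), LMO 4 (0.685) and LLO 4 (0.512). The 5 samples with FST above 0.5 FPKM were all among these 7. No sample of HMO or HSO exceeded 0.5 FPKM for FST or INHBB.

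**Figure D3:**
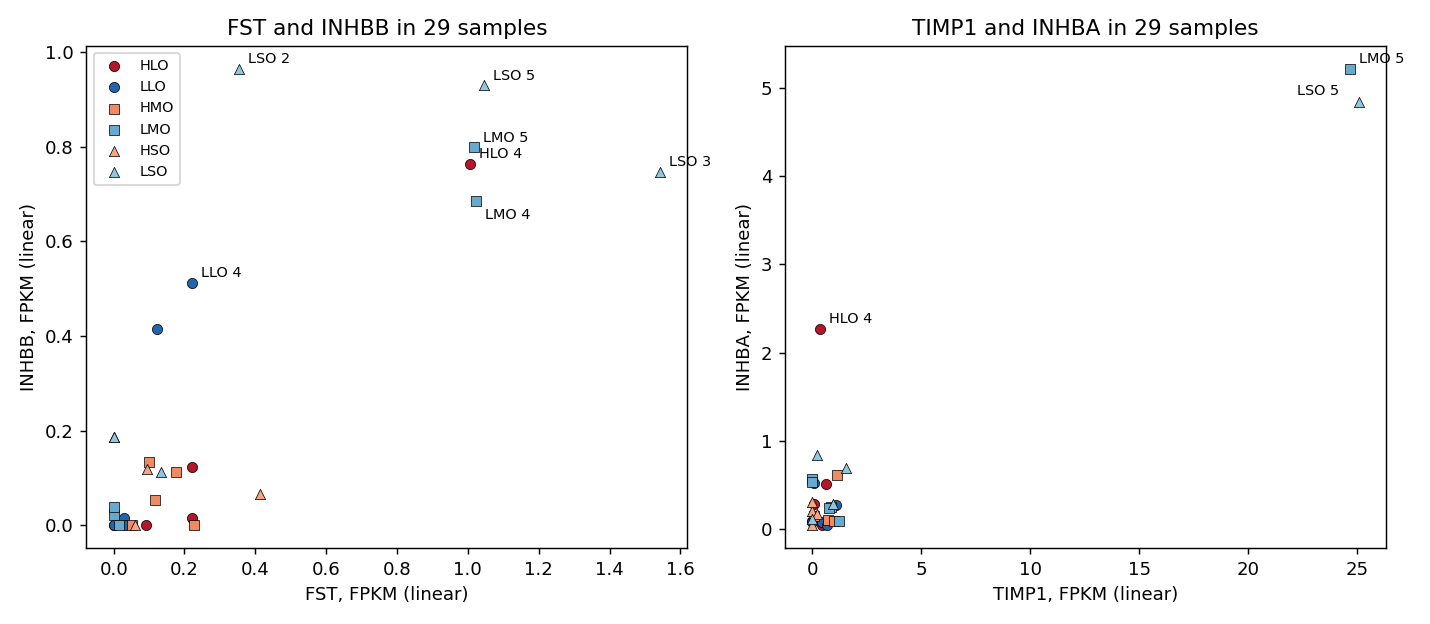
FST against INHBB (left) and TIMP1 against INHBA (right) in FPKM (linear axes), 1 point per sample, with the highest samples named. The 5 samples above 0.5 FPKM for FST were also above it for INHBB, and LMO 5 and LSO 5 stood apart for TIMP1 and INHBA.

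All 20 genes of an activin and inhibin list were in the table. The type I receptors ACVR1 and ACVR1B had means of 11.3 and 5.59 FPKM, and SMAD2, which carries the signal to the nucleus, 9.24. TGFBR3 (betaglycan), which helps inhibin to compete with activin, had 2.48, and BAMBI, a decoy receptor, 2.07. INHBC, INHBE and FOXH1 were listed at 0 in 29 of 29 samples. Other receptors were lower, with means of 0.965 FPKM for ACVR2A, 0.178 for ACVR1C and 0.155 for ACVR2B, beside 0.677 for INHBA, 0.287 for FST and 0.241 for INHBB.

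KRT18, a keratin of simple epithelia, had a median of 0.206 FPKM, was listed at 0 in 4 samples, and was highest in HLO 2 (0.688) and HLO 3 (0.506). Its partner KRT8 reached at most 0.331 FPKM, whereas KRT19 exceeded 0.5 FPKM in 29 of 29 samples (mean 2.51). Of 12 filament genes, LMNB1 and LMNA, which line the nucleus, had means of 2.83 and 1.25 FPKM. VIM, the filament protein of mesenchymal cells, exceeded 0.5 FPKM in 1 sample (LSO 3, 0.845).

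Tests across all genes used limma on log2(FPKM + 1), with p-values adjusted by the Benjamini-Hochberg method over the genes tested. The symbols had been chosen from these contrasts, so nothing is read from the counts of members. Between HLO and LLO, 0 of 4 members tested passed an adjusted p of 0.05 and 2 (STAR and SPARC, both higher in HLO) had an unadjusted p under 0.05; over 8328 genes the shares were 0 and 4.14%, and 2.98% for the higher direction. Between HMO and LMO, 0 of 6 passed and 2 (STAR and SPARC, both lower in HMO) had an unadjusted p under 0.05, with 0.0715 and 8.67% over 8390 genes and 3.58% for the lower direction. Between HSO and LSO, 0 of 4 passed and 2 (MGP and SPARC, both higher in HSO) had an unadjusted p under 0.05, with 0.0119 and 4.41% over 8376 genes and 2.04% for the higher direction. An exact Wilcoxon test left 1 member at an unadjusted p under 0.05 in each of the 3 comparisons, beside 2.47% of genes in large, 6% in medium and 4.12% in small follicles, and 0 after adjustment.

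The median log2 difference of the members tested was 0.58 in large (4 members), -0.56 in medium (6) and 0.60 in small follicles (4). Over all genes tested it was -0.09, -0.07 and -0.01. The sets differed, since TIMP1 (-0.55) and INHBA (-0.57) were tested only in medium follicles, where both were highest in LMO 5. Without LMO 5, TIMP1 was at 0.29 and INHBA no longer passed the filter. The members had been picked from these contrasts, so nothing is read from the medians. Follicle size, with fertility as a covariate, gave 0 of 8 members at an adjusted p under 0.05 and 0 at an unadjusted one, with 0 and 1.66% over 9692 genes. The interaction of fertility and follicle size gave 0 of 8 after adjustment and 3 (STAR, MGP and SPARC) before it, with 0 and 7.89% over all genes. By limma with array weights, which give samples far from their group less weight, 2 members (STAR and SPARC) passed the adjusted limit in medium follicles, beside 12.1% of 8390 genes, and 1 (SPARC) for the interaction, beside 2.38% of 9692.

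Relative spread separated the genes further. The coefficient of variation over 29 samples was 43.3% for STAR, 46.2% for SERPINE2, 57.3% for SPARC and 66.7% for MGP, beside a median of 64.1% over the 9692 genes. It was 134% for INHBB, 144% for FST, 189% for INHBA and 293% for TIMP1. By this measure STAR varied less than 83% of genes, and TIMP1 more than 99.9%. STAR and SERPINE2 were by it the steadiest of the 8 genes tested, and TIMP1 and INHBA the least steady. The order was another for the SD of log2(FPKM + 1), where low values spread little. That SD was 0.338 for INHBB, 0.387 for FST, 0.471 for SPARC and 0.627 for SERPINE2. It was 0.663 for INHBA, 0.690 for STAR, 0.983 for MGP and 1.17 for TIMP1, beside a median of 0.555 over the 9692 genes.

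The 10 genes did not vary as 1 block. The median of the 45 pairwise correlations over 29 samples was 0.21, and 6 pairs exceeded 0.5; without LMO 5 and LSO 5 the median was 0.04 and 2 pairs did. These points share libraries, groups and replicate numbers, and the correlations carry no test. Of the pairs, 4 are given in detail, chosen after their values were seen, and STAR with CYP11A1 is given beside them.

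STAR and SPARC had r = 0.80 (Spearman's rho 0.76), and 0.78 without the 2 samples farthest from the median of STAR. It was 0.80 without LMO 5 and LSO 5 and 0.70 for deviations from the group means. FST and INHBB had r = 0.82 (rho 0.61), and 0.75 without LMO 5 and LSO 5.

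TIMP1 and INHBA had r = 0.80 but rho 0.24, and r was 0.03 without LMO 5 and LSO 5. The relation between TIMP1 and INHBA thus rests on those samples. MGP and INHBB, the pair with the lowest r of the 45, had r = -0.43 (rho -0.39), -0.39 without LMO 5 and LSO 5 and -0.24 for deviations from the group means. STAR and CYP11A1, successive steps of steroid synthesis, had r = 0.54 and rho 0.54. Their r was 0.49 without LMO 5 and LSO 5 and 0.39 for deviations from the group means. CYP11A1 exceeded 0.5 FPKM in only 1 sample.

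**Figure D4:**
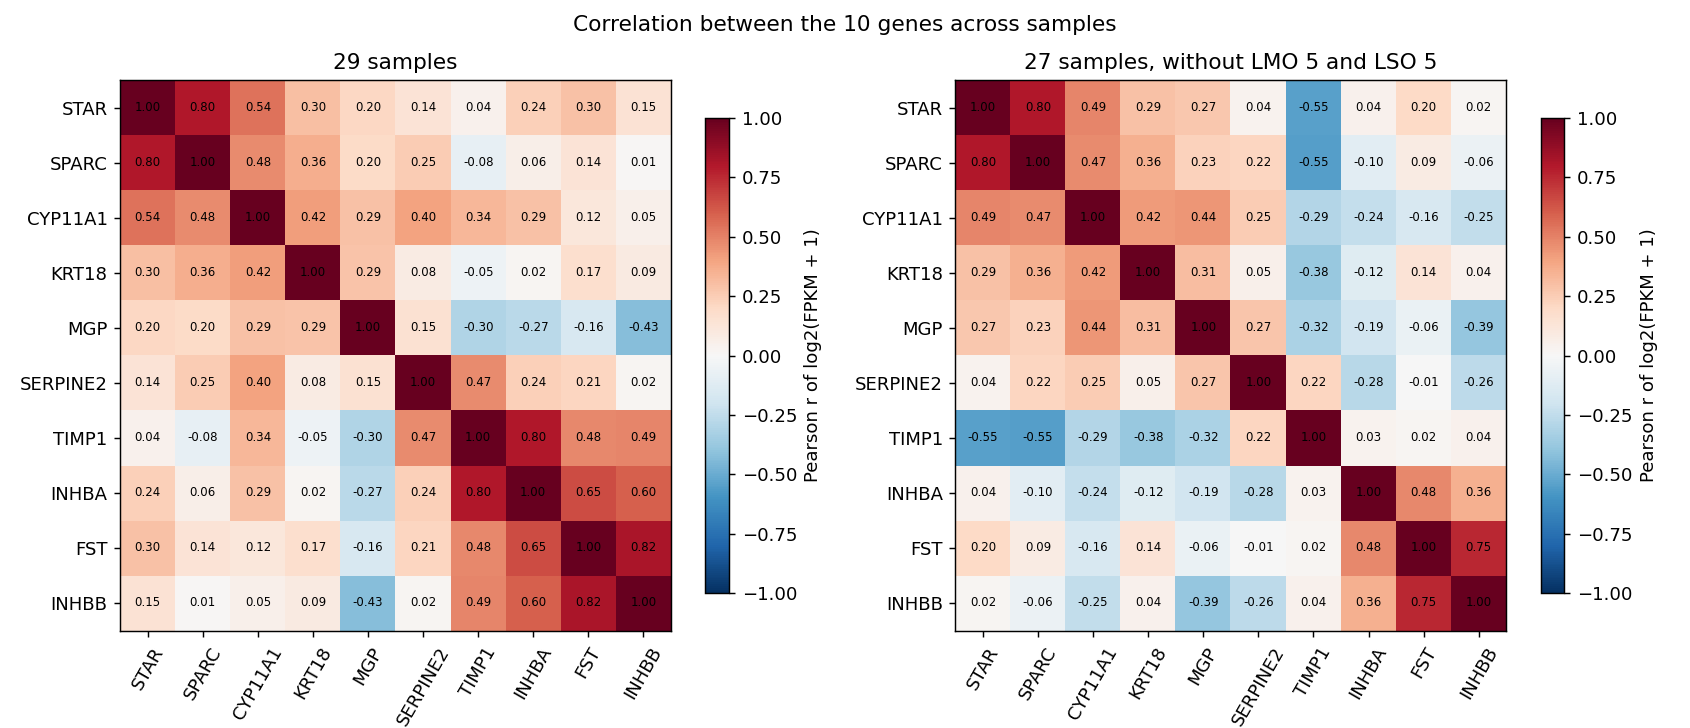
Pearson's r of log2(FPKM + 1) between the 10 genes over 29 samples (left) and over 27 samples without LMO 5 and LSO 5 (right); red is positive and blue negative. STAR with SPARC and FST with INHBB kept r of at least 0.75 in both panels, while TIMP1 with INHBA went from 0.80 to 0.03.

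Measures of the whole library moved with some of the genes. The 3 measures were the number of genes above 0.5 FPKM, the summed FPKM and the summed level of GDF9, BMP15, ZP2, ZP3 and ZP4. In this order SERPINE2 had r = 0.57 (rho 0.52), 0.53 (rho 0.33) and 0.53 (rho 0.55). TIMP1 had r = 0.45 (rho 0.65), 0.11 (rho 0.13) and 0.39 (rho 0.56). MGP had r = -0.14 (rho -0.17), 0.43 (rho 0.37) and -0.11 (rho -0.19). STAR had r between -0.23 and 0.04 and rho between -0.28 and 0.16 with these 3 measures. The part of library size in the levels of SERPINE2, TIMP1 and MGP was not tested.

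The genes most like STAR, SPARC, SERPINE2 and MGP were not shared with other members. TIMP1 shared TNFAIP6 with INHBA and RARRES2 with FST, and FST and INHBB were most like each other. For STAR the genes most alike were PGM3 (r = 0.86), SEPT2 (0.86) and SPPL3 (0.84), and for SPARC TBX15 (0.87), NCSTN (0.86) and RBMS2 (0.85). For SERPINE2 they were INIP (0.87), TRAPPC3 (0.86) and METTL24 (0.86), and for MGP MED21 (0.73), LOC106501960 (0.72) and ORMDL2 (0.71). For INHBB they were FST (0.82), GART (0.60) and GID4 (0.60), and for FST INHBB (0.82), INHBA (0.65) and RARRES2 (0.56).

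For TIMP1 the genes most alike included TNFAIP6 (0.91), a hyaluronan-binding protein of the expanding cumulus, and RARRES2 (0.84). For INHBA they were the metallothionein LOC102188618 (0.83), TNFAIP6 (0.83) and TIMP1 (0.80). TNFAIP6 had 16.6 FPKM in LMO 5 and 18.2 in LSO 5 and at most 0.894 in the other samples. LOC102188618 had 11.6 and 12.9 FPKM there and at most 3.53 elsewhere. Without LMO 5 and LSO 5, r of TIMP1 was 0.05 with TNFAIP6 and 0.01 with RARRES2. That of INHBA was then 0.37 with LOC102188618, -0.10 with TNFAIP6 and 0.03 with TIMP1. That of FST was 0.75 with INHBB, 0.48 with INHBA and 0.27 with RARRES2.

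The highest value fell in LMO 5 or LSO 5 for 1 (INHA) of the 13 granulosa genes that exceeded 0 in some sample. It did so for 3 of 12 cumulus genes. The share over all genes was not computed, so nothing is read from these counts. Those 3 cumulus genes were TNFAIP6, EREG (0.778 and 0.830 FPKM, at most 0.00863 elsewhere) and ADAMTS1 (0.328 and 0.241, at most 0.0566 elsewhere). The summed level of the cumulus list was 20.8 FPKM in LMO 5 and 22.3 in LSO 5 against a median of 2.48 over all samples. TNFAIP6 alone made up 16.6 and 18.2 FPKM of these sums, so they mostly repeat the values of that gene. The summed level ranged from 1.48 to 4.20 FPKM in HLO, 1.64 to 5.17 in LLO, 1.85 to 2.83 in HMO, 1.66 to 20.8 in LMO, 2.27 to 3.16 in HSO and 1.34 to 22.3 in LSO. PTX3, PTGS2, LHCGR and BTC were listed at 0 in both, as they were in 21, 26, 27 and 27 of 29 samples. AREG was 0.170 and 0.159 FPKM in LMO 5 and LSO 5 (median 0.0216, highest 0.235 in LLO 2). PGR was 1.07 and 0.952 FPKM (median 0.469, highest 1.26 in LLO 1). RUNX2 was 0.342 and 0.409 FPKM (median 0.287, highest 0.646 in LSO 4). CD44 was 0.0272 FPKM in both (median 0.00545, highest 0.0639 in HLO 2). INHA was 0.782 FPKM in LMO 5, its highest value, and 0.375 in LSO 5, and it was listed at 0 in 20 samples. FSHR was 0.252 and 0.126 FPKM, against a median of 0 over 29 samples, and was highest in LSO 3 (0.283). GJA1 was 0.725 and 0.502 FPKM, against 4.23 in LSO 4. HAS2 was 1.49 and 1.55 FPKM, against a median of 1.45 over 29 samples and 4.34 in LLO 5. The part of cumulus cells in the TIMP1 and INHBA values was not tested.

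Lists of other cell types held both low and clearly measured genes. Their summed levels had medians of 10.5 FPKM for theca, 13.6 for stroma, 2.93 for endothelium and 0.367 for leukocytes, beside 8.85 for granulosa cells. Few genes made up most of the larger sums, which therefore do not rank the cell types. The medians of single genes were 9.81 FPKM for HHIP (theca), 7.26 for DCN and 3.33 for ACTA2 (stroma). They were 3.78 for KITLG and 3.75 for VCAN (granulosa). Of 7 theca genes found, INSL3 was listed at 0 throughout and LHCGR reached 0.0460 FPKM, while HHIP, which binds hedgehog ligands, had a mean of 12.7 FPKM. Of 13 stromal genes, DCN had a mean of 7.95 FPKM and ACTA2 5.92, but COL1A1 reached 0.0391 and PDGFRA 0.0373. The endothelial genes CDH5 and CLDN5 were listed at 0 throughout, and TEK had a mean of 1.79. Of 9 leukocyte genes 4 were at 0 throughout and PTPRC reached 0.0538 FPKM. Of 7 erythrocyte genes 2 were in the table. AHSP, a chaperone of red cells, had a mean of 9.19 FPKM, while ALAS2 reached at most 0.464. A last list held granulosa markers shown by the study, some of them picked on these samples. Of its 10 genes, 7 never exceeded 0.5 FPKM, among them JUNB, listed at 0 throughout. The other members, EGR1, INHBA and FST, exceeded it in 23, 10 and 5 samples. No gene of any list passed an adjusted p of 0.05 for fertility, follicle size or their interaction.

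Replicate number, which the labels give without saying what it stands for, moved with many genes. By limma's F-test over the 5 numbers, with the group as a covariate, 2 of 8 members (TIMP1 and SERPINE2) passed an adjusted p of 0.05, beside 50.5% of 9692 genes; the same 2 had an unadjusted p under 0.05, beside 58% of genes. SERPINE2 had a mean of 4.47 ± 0.876 FPKM (SD, n = 5) in samples numbered 2 and 12.6 ± 5.30 (n = 6) in those numbered 5. The other numbers had means of 9.67, 7.30 and 10.4 FPKM (numbers 1, 3 and 4). TIMP1 reached at most 0.0916 FPKM in samples numbered 2 and was listed at 0 in 4 of 6 numbered 3, while its lowest value among those numbered 5 was 0.235. Without LMO 5 and LSO 5, 1 member (TIMP1) passed, beside 44.2% of 9644 genes.

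**Figure D5:**
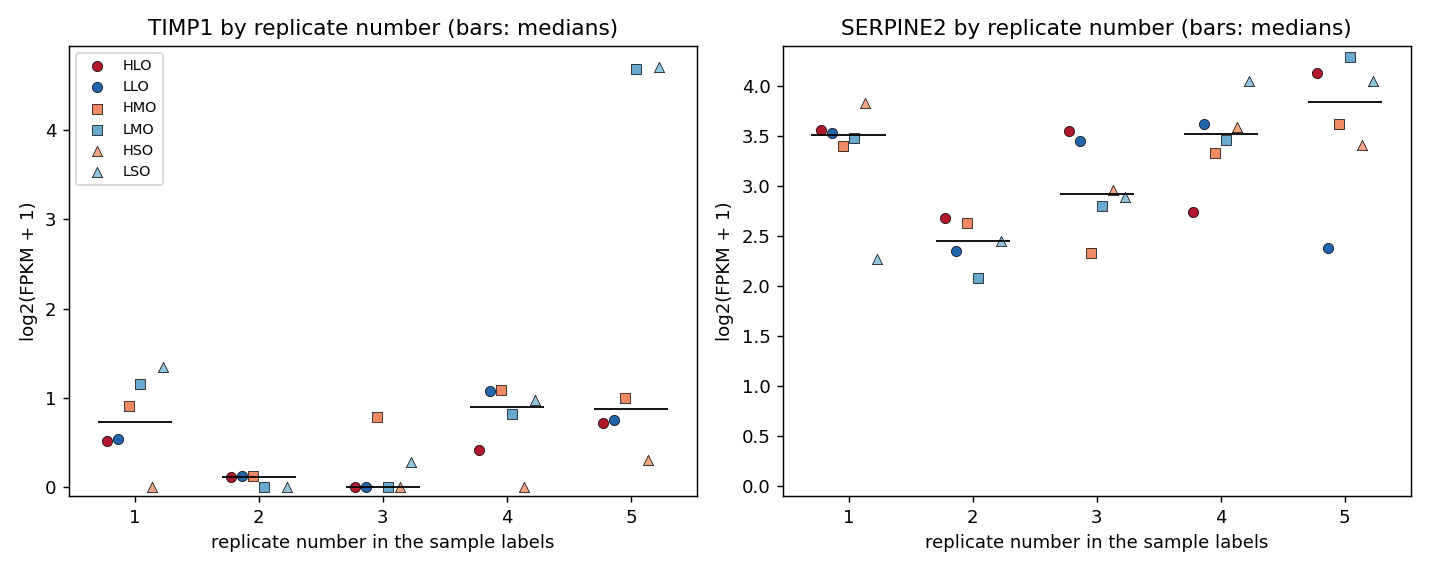
TIMP1 and SERPINE2 on the log2(FPKM + 1) scale by the replicate number in the labels; points are samples, colours and shapes are groups, and bars are medians. Samples numbered 2 were low for both genes, and LMO 5 and LSO 5 stood apart for TIMP1.

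Of the lists, 3 of 5 granulosa genes tested passed for replicate number, as did 8 of 15 oocyte genes, 4 of 11 matrix genes, 3 of 10 steroid synthesis genes and 2 of 12 activin and inhibin genes. These shares stand beside the 50.5% over all genes.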

How the data were processed

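Oocyte RNA of 29 samples was analysed. Per the study's methods, the authors selected polyadenylated RNA, kept uniquely aligned reads with few mismatches, removed duplicates with picard and made FPKM values per gene with Cufflinks and the Ensembl annotation; the aligner and genome build are not given in the sources used here. The deposited FPKM table was used as it is. Since FPKM hold no read numbers, intervals for counting error were not computed. Columns were matched to samples by name, and 1 column was left out.

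Values were analysed as log2(FPKM + 1) with limma 3.58.1 in R 4.3.3 (moderated tests with a trend, Benjamini-Hochberg adjustment), leaving out genes that did not exceed 0.5 FPKM in 4 or more samples of the comparison; 8 of the 10 genes passed this filter over 29 samples and KRT18 and CYP11A1 did not. Fertility was compared within each follicle size, and follicle size, the interaction and replicate number over all samples. Correlations, spread and figures were made with pandas 2.3.3, numpy 2.4.6 and matplotlib 3.10.9, under Python 3.11.15 (scipy 1.17.1 for ranks and densities). The procedures were tested on simulated data in which 200 genes were changed by 2 on the log2 scale. Of these, 23.5% passed the adjusted limit in large, 56.5% in medium and 51.5% in small follicles. For follicle size, the interaction and replicate number, 85, 19.5 and 60% passed. A result of 0 members passed thus need not mean that the groups were alike.

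The 10 genes, the gene lists and the tests were chosen with earlier results of these data known. Genes named beside them are the 3 most correlated with each member that passed the filter (1 of them is not reported here), and the highest genes of each list by mean; other list genes were named after their values were seen. Alternatives were other pseudocounts (0.1 and 0.5), filters, scalings and tests, array weights, a replicate block and each sample left out. Leaving out LMO 5 and LSO 5 together, and the settings of the 4 pairs, were added after seeing the data. Of 14 pairs of samples with the same number in the fertility groups of a follicle size, 10 had deviations from the group means correlated above 0.1. Same-numbered samples thus shared part of their variation. The main tests of fertility, follicle size and interaction nonetheless left the numbers out, and the replicate block was run only as an alternative.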

Additional observations from a re-analysis of the deposited data

Results flagged for a closer look

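In 60 sets of values (10 genes in 6 groups), 12 values lay far from the rest of their group by Dixon's criterion. For normally distributed values, chance alone meets it in about 1 in 20 groups. It was applied here to FPKM on the linear scale, some of them at 0, so that rate need not hold. LMO 5 and LSO 5 account for 4 of them, with TIMP1 at 24.7 and 25.1 FPKM (at most 1.23 and 1.55 in the rest of the group) and INHBA at 5.21 and 4.84 (at most 0.565 and 0.840). HLO 4 accounts for 3, with INHBA at 2.27 FPKM (at most 0.511 in the rest), FST at 1.005 (at most 0.222) and INHBB at 0.764 (at most 0.122). SPARC was 1.68 FPKM in HMO 2 (0.397 to 0.735 in the rest) and 2.60 in LMO 2 (1.23 to 1.57), and LMO 2 also had the lowest summed FPKM of the 29 samples. MGP was 34.5 FPKM in HMO 1 (7.95 to 13.8 in the rest). STAR was 12.5 FPKM in HSO 1 (24.1 to 26.2 in the rest). TIMP1 was 0.235 FPKM in HSO 5 and listed at 0 in the rest of HSO, where any value above 0 would have met the criterion.

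The log2 difference of STAR between high and low fertility was 0.96 in large follicles, where each HLO sample lay above each LLO sample, and -1.04 in medium follicles, where each HMO sample lay below each LMO sample. The interaction over the 3 follicle sizes had an adjusted p of 0.256 over 9692 genes by limma, so the opposite directions did not pass the threshold, and STAR was among the genes chosen for their pattern in these samples.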

How the results depend on the processing

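The number of members past an adjusted p of 0.05 was 0 for fertility in large and in small follicles and for follicle size under each alternative run. With array weights it was 2 in medium follicles, 1 for the interaction and 5 of 8 for replicate number, where 12.1, 2.38 and 79.5% of genes passed. For replicate number it was 1 with no filter, with median-of-ratios factors, with within-sample ranks and without LMO 5 and LSO 5, where 27.3, 46, 42 and 44.2% of genes passed, and 1 to 2 with each sample left out; TIMP1 passed in each of these, and SERPINE2 did not without HLO 2, HLO 5, LLO 2, HMO 5, LMO 2, LMO 5, HSO 3, LSO 2 or LSO 5. With quantile normalization the 2 members were TIMP1 and STAR. With the replicate block, 0 members passed for fertility, follicle size or the interaction, while 1, 127, 0, 0 and 70 genes passed in large, medium and small follicles, for size and for the interaction, against 0, 6, 1, 0 and 0 without it; 20 of 29 samples correlated best with their own number. The median pairwise correlation was 0.043 without LMO 5 and LSO 5, and 0.14 to 0.26 with each sample left out.

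STAR with SPARC had r = 0.70 for deviations from the group means and 0.66 with the replicate block. FST with INHBB had rho 0.61. TIMP1 with INHBA had rho 0.24, r = 0.56 at a pseudocount of 0.1 and 0.035 without LMO 5 and LSO 5. MGP with INHBB had r = -0.24 for deviations from the group means and -0.17 with the replicate block. Of 228 log2 differences of members recomputed over 14 contrasts, 6 changed sign, for TIMP1 (1), SERPINE2 (2) and MGP (3) in medium follicles, none of them called; each did so with 1 sample left out, and that of TIMP1 went from -0.55 to 0.29 without LMO 5. The causes were not tested. Low values limit FST, INHBB, KRT18 and CYP11A1, since the reads behind them are unknown.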
